A study of Mus musculus with 6 samples.

Results

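The genes of the Mediator complex were examined for H3K27ac, the acetylation of histone H3 at lysine 27 that marks active promoters and enhancers, in mouse embryonic stem cells (mESCs). The members are the protein-coding genes of the GENCODE annotation whose symbol is Med followed by a number, with or without a final l, together with Ccnc, Cdk8 and Cdk19. This gave 33 genes among 21853 protein-coding genes. H3K27ac was measured by ChIP-seq in E14 mESCs, given in the labels as E14Tg2A Rosa26-Cre Oct4-IRES-Puro, which were grown in N2B27 medium with LIF, the MEK inhibitor PD0325901 and the GSK3 inhibitor CT-99021 in every group. Cells were treated for 2 h with DMSO (control), with 100 nM NVP-2, an inhibitor of the elongation kinase CDK9, or with actinomycin D (ActD), which blocks RNA polymerases and is labelled as 800 nM, with 2 samples in each group. As a spike-in, each sample also received chromatin from HEK293T, a human embryonic kidney line. The values below come from 1 list of 22973 peaks in control cells that pools both control samples and gives only a chromosome, a start and an end on mm10. The list therefore has no replicate error, its depth cannot be read from it, and the treated cells were not analysed here.

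Mediator is a large protein complex that relays signals from DNA-bound transcription factors to RNA polymerase II. Its head and middle modules contact the polymerase, Med14 is the scaffold that joins them to the tail, and tail subunits such as Med15, Med23 and Med25 are bound by activators. A separate kinase module of Cdk8 or its paralog Cdk19, cyclin C (Ccnc), Med12 and Med13 or their paralogs Med12l and Med13l binds the core reversibly. In embryonic stem cells Mediator is known for its role at the enhancers of pluripotency genes, together with cohesin and its loader Nipbl.

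The labelled cell type was checked first. Of 8 promoters of pluripotency genes, 6 overlapped a peak, those of Pou5f1, Nanog, Sox2, Zfp42, Tfcp2l1 and Tdgf1, and those of Esrrb and Klf4 did not. Of 13 markers of primitive endoderm, trophoblast, neuroectoderm, mesoderm and fibroblasts, 4 overlapped a peak, Gata6, Gata4, Eomes and Sox1, and none of the 3 fibroblast markers did. Over all protein-coding genes, 48.8% of promoters overlapped a peak.

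A promoter was called marked when a peak overlapped the window of 1 kb on either side of the transcription start site (TSS) of the longest isoform by at least 1 bp. Of the 33 Mediator promoters, 31 were marked, which is 93.9% (95% Wilson interval 80.4 to 98.3%, counting error only). Among all protein-coding genes the share was 48.8%. The unmarked members were Med10, a subunit of the middle module, and Med27, counted here with the head module. All 7 genes of the kinase module, all 5 of the tail and the scaffold gene Med14 were marked, as were 10 of 11 head genes and 8 of 9 middle genes. With so few genes in each module these counts set no module apart. The count was also 31 with a window of 500 bp (48.4% of all protein-coding genes), a window of 2 kb (49.9%), an overlap of at least 500 bp (47.4%) or peaks merged up to 4 kb apart (48.9%). It was 32 with the APPRIS principal isoform (48.6% of all protein-coding genes) or any isoform (51%), 30 with the TSS itself inside a peak (44.2%) and 29 when narrower peaks than 1 kb were left out (43.7%). The members lie on 17 chromosomes, with 7 on chromosome 11 and 2 on the X chromosome.

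Promoter sequences are shown for the 2 start sites of Med10 that RefSeq lists, because these differ in H3K27ac, for the unmarked promoter of Med27, for Med26 with the widest promoter peak, for Med13 with the narrowest peak among the members that have an entry, and for the scaffold gene Med14. Each runs from 250 bases before the RefSeq start site to 30 bases from it, 5′ to 3′ in the direction of the gene, on GRCm38. Capitals mark matches, on either strand, to the motif of the TATA box (TATAAA), of NF-Y (CCAAT), of Sp1 (GGGCGG), of ETS factors (CCGGAAG), of NRF1 (GCATGCG), of YY1 (AAGATGG) or of Zfp143 (ACTACAA), and matches may overlap.
Med10, first start site, chr13:69802120-69802399, plus strand: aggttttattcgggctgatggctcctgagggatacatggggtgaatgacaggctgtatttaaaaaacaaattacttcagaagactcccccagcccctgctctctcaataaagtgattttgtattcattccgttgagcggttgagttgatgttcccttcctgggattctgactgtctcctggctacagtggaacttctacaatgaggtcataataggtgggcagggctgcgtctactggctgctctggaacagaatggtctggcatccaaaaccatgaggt
Med10, start site in the peak, chr13:69809632-69809911, plus strand: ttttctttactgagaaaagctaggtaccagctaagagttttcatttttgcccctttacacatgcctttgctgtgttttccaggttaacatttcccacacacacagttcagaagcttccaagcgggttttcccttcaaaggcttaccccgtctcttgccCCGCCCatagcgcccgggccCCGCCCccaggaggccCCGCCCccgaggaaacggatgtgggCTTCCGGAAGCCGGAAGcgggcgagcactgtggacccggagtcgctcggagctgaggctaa
Med27, chr2:29346560-29346839, plus strand: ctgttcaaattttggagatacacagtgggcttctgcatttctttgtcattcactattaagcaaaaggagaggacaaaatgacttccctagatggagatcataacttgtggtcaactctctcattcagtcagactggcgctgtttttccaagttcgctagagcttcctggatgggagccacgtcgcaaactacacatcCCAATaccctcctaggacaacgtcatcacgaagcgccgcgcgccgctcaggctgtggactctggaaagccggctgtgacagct
Med26, chr8:72548281-72548560, minus strand: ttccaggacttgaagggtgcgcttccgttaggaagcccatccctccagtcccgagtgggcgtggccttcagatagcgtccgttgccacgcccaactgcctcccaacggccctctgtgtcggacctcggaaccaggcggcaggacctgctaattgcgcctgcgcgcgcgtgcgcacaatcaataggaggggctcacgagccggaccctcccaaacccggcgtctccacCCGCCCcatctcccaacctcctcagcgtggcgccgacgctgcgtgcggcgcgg
Med13, chr11:86357567-86357846, minus strand: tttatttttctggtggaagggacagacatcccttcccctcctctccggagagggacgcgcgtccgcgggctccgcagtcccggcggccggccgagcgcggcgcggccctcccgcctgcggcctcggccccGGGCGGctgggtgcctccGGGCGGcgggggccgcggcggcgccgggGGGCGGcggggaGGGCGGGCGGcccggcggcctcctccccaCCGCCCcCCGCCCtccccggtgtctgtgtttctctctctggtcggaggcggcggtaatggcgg
Med14, chrX:12761944-12762223, minus strand: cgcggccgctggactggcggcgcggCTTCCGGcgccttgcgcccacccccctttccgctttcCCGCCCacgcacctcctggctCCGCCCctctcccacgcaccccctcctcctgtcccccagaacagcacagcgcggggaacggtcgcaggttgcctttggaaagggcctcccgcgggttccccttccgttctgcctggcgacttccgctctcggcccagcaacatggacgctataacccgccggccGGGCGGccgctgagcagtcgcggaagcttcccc
In the start site of Med10 that lies inside a peak, CCGGAAG matched 3 times and GGGCGG matched 3 times, whereas the first start site held none of the 7 motifs. All 280 bases of the former and none of the latter lay in a peak. The sequence of Med27 held 1 CCAAT, that of Med26 1 GGGCGG, that of Med13 7 GGGCGG, and that of Med14 1 CCGGAAG and 3 GGGCGG. The promoter table of RefSeq held 28 of the members and not Cdk19, Med8, Med23, Med24 or Med30.

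Med10 (ENSMUSG00000021598.9) spans chromosome 13 from 69802395 to 69816104 on the plus strand, and the TSS of its longest isoform, at 69802395, had no peak within 7.06 kb. The nearest peak, 1410 bp from 69809459 to 69810868, overlapped exon 2 and the introns on either side of it and held the start sites of 2 other protein-coding isoforms, at 69809841 and 69809914. The former belongs to the principal isoform in the APPRIS annotation. An isoform that starts at 69802417, next to the first TSS, was unmarked, and the peak also overlapped another annotated gene, Gm26819. Med10 was thus marked when the TSS of the APPRIS principal isoform, of the isoform with the longest spliced length or of any isoform was used. Around the first TSS the ratio of observed to expected CpG over 1 kb on either side was 0.142, the lowest among the members, and 14.2% of protein-coding genes had a lower value. Around the TSS at 69809841 the ratio was 0.449. Of the 11179 unmarked protein-coding genes, 4.25% had a marked promoter at the TSS of another isoform, as Med10 had.

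Med27 (ENSMUSG00000026799.15), on the plus strand of chromosome 2 from 29346819 to 29524793, had no peak at any of the 6 start sites of its protein-coding isoforms. The nearest peak lay 15.3 kb upstream of the first TSS, from 29329470 to 29331496, outside any protein-coding or lincRNA gene. The start site at 29377840, further into the gene, was 46.3 kb from that peak. Within the gene there was 1 peak, of 7895 bp from 29454730 to 29462624 in intron 3, which began 107.9 kb downstream of the TSS. The CpG ratio of this promoter was 0.594, above that of 64.4% of protein-coding genes and near the median of 0.641 over marked ones. The list gives no height, so it cannot be told whether Med27 had no signal or fell below a threshold of the authors. The authors also removed peaks far from ATAC-seq summits, and this case cannot be told apart from the others.

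**Figure D1:**
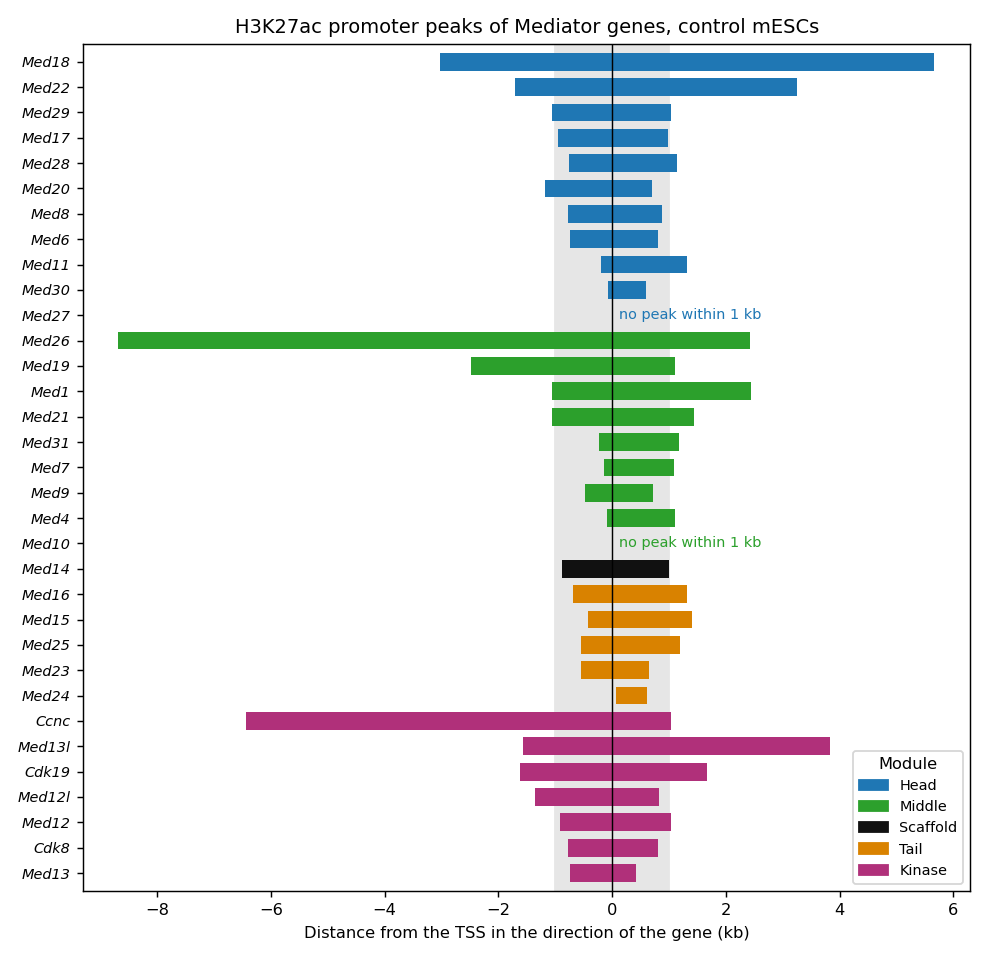
Promoter peaks of the 33 Mediator genes by module, drawn from the upstream to the downstream end of the peak relative to the TSS in the direction of the gene (kb), with the window of 1 kb on either side of the TSS in grey. All bars but that of Med24 cross the TSS, those of Med26, Ccnc and Med18 reach farthest beyond the window, and Med10 and Med27 have no bar.

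The promoter peaks of the 31 marked members were 535 to 11122 bp wide, with a median of 1885 bp (exact binomial 95% interval of the median 1548 to 2191 bp) and quartiles at 1460 and 2898.5 bp. Over the 10674 marked protein-coding genes the median was 2174 bp, inside that interval, with quartiles at 1558 and 4832.5 bp. Peaks from 1 kb up to 3 kb made up 21 of the 31, or 67.7%, and 51.0% of those of all marked protein-coding genes. A peak of at least 10 kb was found at 1 member, Med26, and at 10.8% of all marked protein-coding genes. 

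The widest promoter peaks belonged to genes of 3 modules. Med26 (ENSMUSG00000045248.6), a subunit that recruits elongation factors to the polymerase, lies on the minus strand of chromosome 8 with its TSS at 72548270. Its peak of 11122 bp ran from 72545846 to 72556967, 8697 bp upstream and 2424 bp downstream of the TSS, and 9.21% of marked protein-coding genes had a peak as wide or wider. Med18 (ENSMUSG00000066042.4), a head subunit, lay wholly inside its peak of 8697 bp on chromosome 4 from 132458255 to 132466951, which went 5666 bp downstream and past the end of the gene. No other member was covered in full. Ccnc (ENSMUSG00000028252.20), the cyclin of the kinase module, had a peak of 7466 bp on chromosome 4 from 21721291 to 21728756, of which 6435 bp lay upstream of the TSS. Those of Med13l (5412 bp, chromosome 5) and of the head gene Med22 (4952 bp, chromosome 2) came next. Med26 and Ccnc thus had most of their peak upstream of the TSS, and Med18, Med13l and Med22 had most of it downstream.

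The narrowest peak, 535 bp at the tail gene Med24 (ENSMUSG00000017210.14, minus strand), was the only one that did not hold the TSS. It lay on chromosome 11 from 98728830 to 98729364, beginning 71 bp downstream of the TSS at 98729435. All other marked members, 30 in number, had the TSS itself inside a peak, as had 90.5% of marked protein-coding genes. Next came Med30 (664 bp), counted with the head, Med13 (1170 bp), the middle gene Med4 (1184 bp) and the tail gene Med23 (1200 bp). A peak as narrow as that of Med24 was found at 2.59% of marked protein-coding genes and one as narrow as that of Med30 at 4.46%. The peak of Med4 began 88 bp upstream of its TSS and ended 1095 bp downstream, so that it lay almost wholly in the gene.

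**Figure D2:**
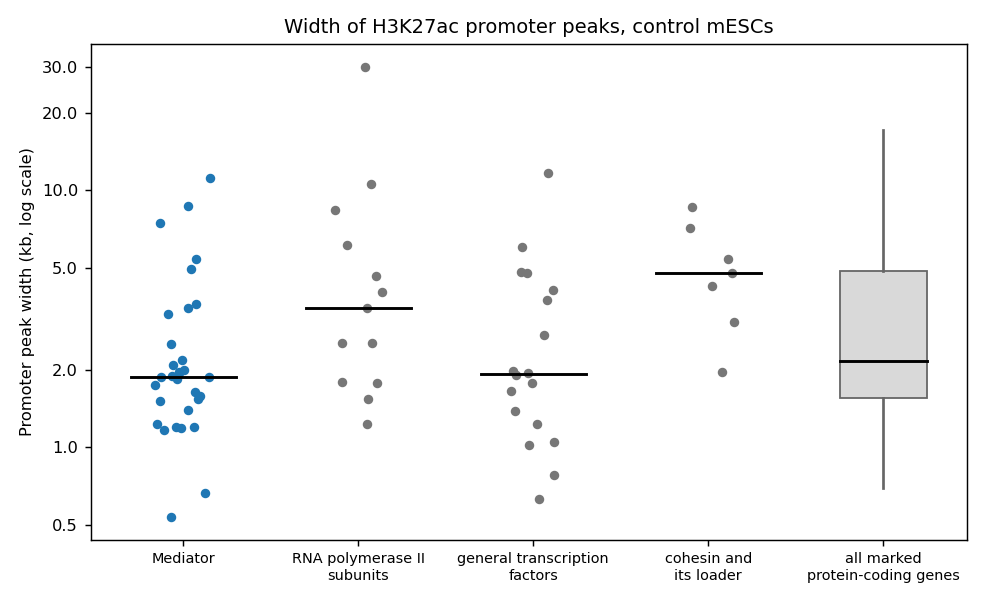
Width of the promoter peak (kb, log scale) of each marked gene of Mediator (blue) and of 3 lists of its partners (grey), with a line at each median, and over all marked protein-coding genes (box from the lower to the upper quartile, line at the median, whiskers at the 5th and 95th percentiles). The Mediator median of 1885 bp lies near those of the general transcription factors (1923.5 bp) and of all marked genes (2174 bp), and the medians of RNA polymerase II subunits (3491 bp) and cohesin (4757 bp) lie higher.

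Med1 (ENSMUSG00000018160.15), the subunit bound by nuclear receptors, had a peak of 3490 bp, above the upper quartile of the members, on chromosome 11 from 98190856 to 98194345, with 2437 bp downstream of the TSS. Med14 (ENSMUSG00000064127.13) had a peak of 1884 bp on the X chromosome from 12761080 to 12762963, which reached 890 bp upstream and 993 bp downstream of its TSS. Its annotated start site 45.9 kb further into the gene was unmarked. Med12 (ENSMUSG00000079487.11), the other member on the X chromosome, had a peak of 1955 bp. On this chromosome 30.5% of protein-coding promoters were marked, with a median width of 5633 bp, and 16.6% of these were below 2 kb, as those of Med12 and Med14 were.

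Genes of the kinase module come in paralog pairs, and the members of each pair were set side by side. Med12, which activates the kinase, had a promoter peak of 1955 bp and Med12l one of 2191 bp, and neither gene held a further peak. Med13, which links the kinase module to the core, had a peak of 1170 bp and no further peak, and Med13l one of 5412 bp with 4 further peaks. Cdk8 had a peak of 1578 bp and no further peak, and Cdk19 one of 3285 bp with 3 further peaks. In all 3 pairs the promoter peak was wider at Med12l, Med13l and Cdk19 than at the paralog. These are also the longer genes, 313 against 23.4 kb, 205 against 90.6 kb and 144 against 71.6 kb, and the part of gene length in the difference was not tested. With 1 pooled list these differences have no replicate check. The CpG ratios were 0.892 at Med12l and 0.490 at Med12, 1.05 at Med13l and 0.830 at Med13, and 0.896 at Cdk19 and 0.855 at Cdk8.

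Peaks inside the genes, away from the promoter window, were found in 9 members, 7 of them with a marked promoter. Among all protein-coding genes 21.9% held such a peak, and 29.9% of the marked ones did. Of 16 such peaks in members, 10 lay in introns alone. Cdk19, which spans 144 kb, held the widest, 15001 bp on chromosome 10 from 40358384 to 40373384 in intron 1, between 9.08 and 24.1 kb downstream of the TSS. Med26 held a peak of 10717 bp on chromosome 8 from 72517343 to 72528059, also in intron 1, and another of 4759 bp over its last exon that contains the TSS of the neighbouring gene Slc35e1. Of the 4 peaks in Med13l, those of 4597 and 1392 bp lay in intron 1 and the others in intron 4 and over exon 30. In Ccnc a peak of 2366 bp overlapped exons 10 and 11, and one of 3298 bp lay in intron 11. Med1, Med24 and Med29 held 1 each, of 716, 288 and 1282 bp, the last over the final exon. With Med10 and Med27, described above, these are the 9 members, and the peak in Med10 is the only one of the 16 that held a start site of the member itself.

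**Figure D3:**
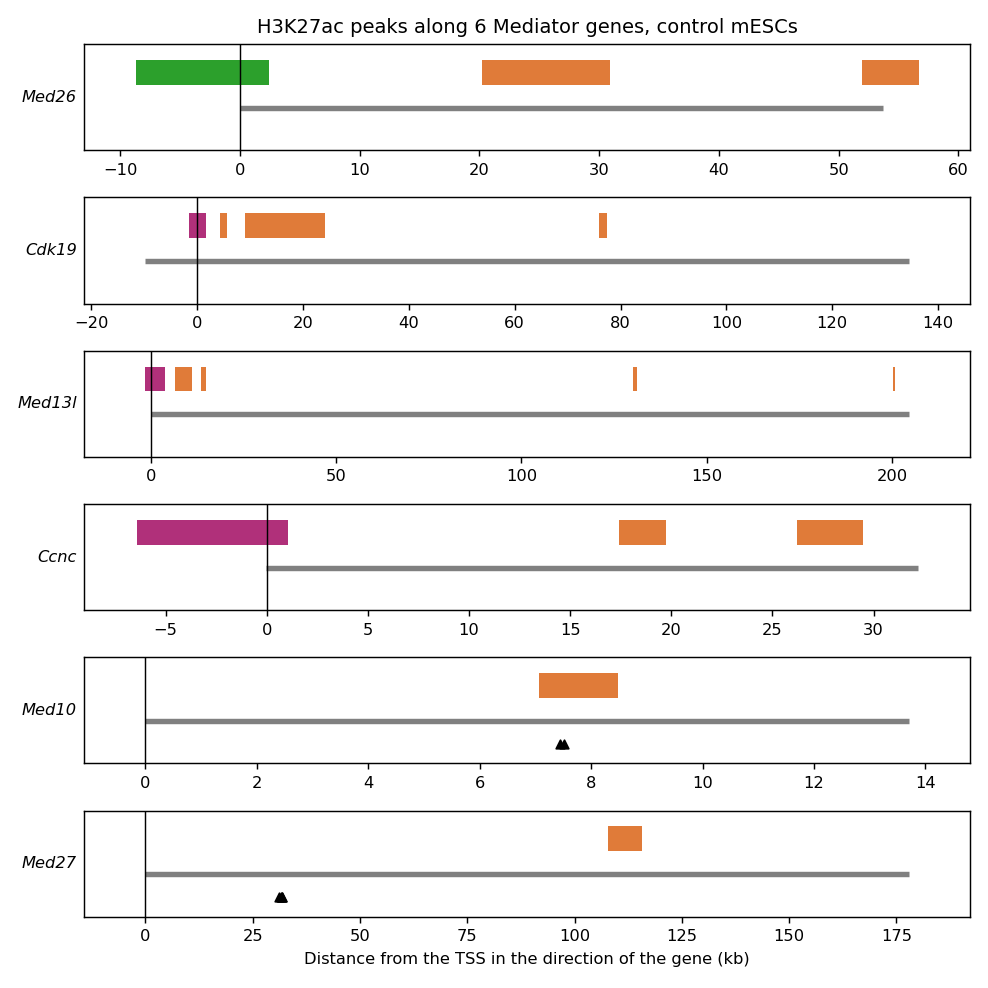
Peaks along 6 members, with the distance from the TSS in the direction of the gene (kb), a grey line for the annotated gene, the promoter peak in the colour of its module, further peaks in orange and triangles at start sites of other isoforms more than 1 kb away. The wide intronic peaks of Med26 and Cdk19 lie apart from the promoter peaks, the peak of Med10 lies over the start sites of its other isoforms, and that of Med27 does not. The grey line of Cdk19 begins before the TSS because the annotated gene includes a processed transcript, a type that was not used.

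The promoter peaks of the members reached to both sides of the TSS much as those of other marked genes did. They extended farther downstream than upstream in 24 of 31 cases, near the share of 67.6% over all marked protein-coding genes. The median reach was 776 bp upstream and 1080 bp downstream, against 841 and 1172 bp over all marked protein-coding genes. The 7 that did not extend farther downstream were Med26, Ccnc, Med12l, Med13, Med19, Med20 and Med29. At Med29 both ends lay at nearly the same distance, 1050 bp upstream and 1035 bp downstream. Apart from Med18, peaks covered most of the short genes Med11, with 72.5% of its length, and Med22, and the median over the members was 9.22% of the gene.

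A shared peak cannot be given to a single gene, and 5 of the 31 peaks held the TSS of another gene, against 27.7% over marked protein-coding genes. All 5 members have a gene starting in the opposite direction within 1 kb upstream. Med22 starts 87 bp from Rpl7a, a gene of the large ribosomal subunit, and Med20 starts 90 bp from Bysl. Med29 starts 243 bp from Paf1, a subunit of the PAF elongation complex, and Med19 starts 361 bp from Gm28635 in a peak that also holds the TSS of Tmx2. The 2 of these with peaks above 3 kb were Med22, with 4952 bp, and Med19, with 3594 bp, and those of Med20 and Med29 were 1885 and 2086 bp wide.

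Mediator promoters were mostly rich in CpG. The ratio of observed to expected CpG over 1 kb on either side of the TSS had a median of 0.634 over the 33 members, 0.482 over all protein-coding genes, 0.641 over the marked and 0.227 over the unmarked ones. The members thus resembled marked genes in general, and Med10 was the only one below the median of unmarked genes. The highest values were those of Med13l (1.05), Cdk19 (0.896) and Med12l (0.892). Between 250 bases before and 50 bases after the GENCODE TSS, the ETS motif CCGGAAG was found in 9 members, Med4, Med6, Med8, Med14, Med15, Med17, Med18, Med19 and Med30, and in 11.2% of all protein-coding promoters and 19.4% of the marked ones. GGGCGG was found in 21 members, against 45.0% and 66.3%, and CCAAT in 14, against 38.7% and 38.8%. AAGATGG was present in 5 members, against 6.26% and 7.66%. GCATGCG was present in 3 members, against 4.64% and 6.79%, and ACTACAA also in 3, against 3.79% and 4.53%. TATAAA was present in 2, Med16 and Med28, against 12.4% of all protein-coding promoters and 6.43% of the marked ones. A match is a run of letters and not a bound site.

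**Figure D4:**
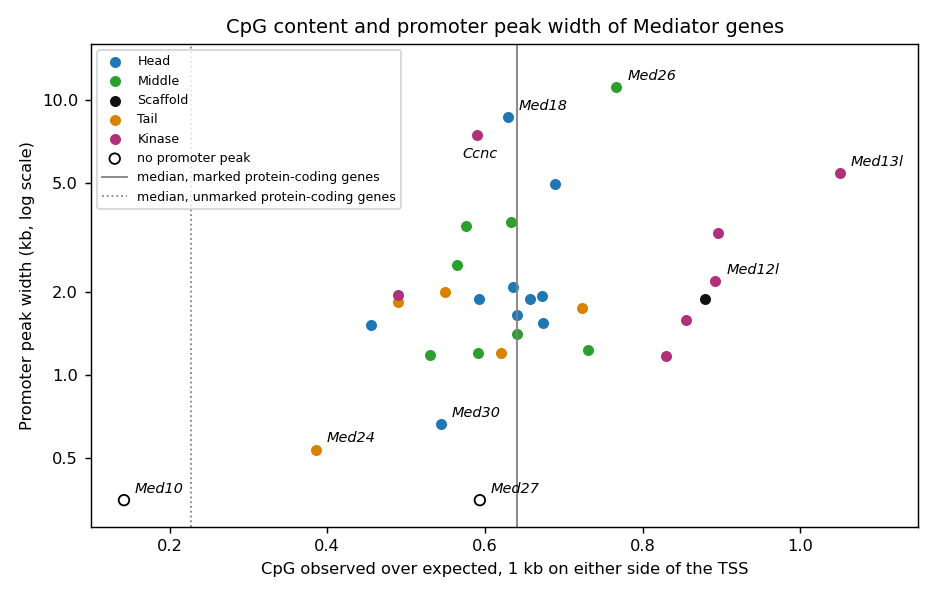
Ratio of observed to expected CpG within 1 kb of the TSS against promoter peak width (kb, log scale) for the marked members, coloured by module, with the unmarked Med10 and Med27 as open circles at the bottom without a width. Vertical lines give the medians of marked (0.641) and unmarked (0.227) protein-coding genes, and only Med10 lies left of the latter.

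The listed partners of Mediator were all marked, against 48.8% of all protein-coding genes. Peaks overlapped the promoters of all 13 genes named Polr2a to Polr2m, which encode RNA polymerase II subunits and the associated protein Polr2m. They also overlapped those of 18 chosen general transcription factor genes and of 7 chosen genes of cohesin and its loader. The former were Tbp, Ccnh, Cdk7, Mnat1, Ercc2, Ercc3 and genes whose symbols begin with Gtf2a, Gtf2b, Gtf2e, Gtf2f or Gtf2h. The latter were Smc1a, Smc3, Rad21, Stag1, Stag2, Nipbl and Mau2. Other subunits were not counted. The widths ranged from 1237 to 30254 bp for the polymerase genes, from 632 to 11644 bp for the general factors and from 1964 to 8631 bp for cohesin. The exact binomial interval of the median ran from 1777 to 8363 bp for the polymerase genes and from 1235 to 4082 bp for the general factors, and both overlap that of Mediator. For the 7 cohesin genes it ran from 1964 to 8631 bp, their full range, and also overlaps that of Mediator. No member of the polymerase list held a further peak inside the gene, while 4 of the general factors and 1 cohesin gene did, against 29.9% of marked protein-coding genes. The polymerase genes are short, with a median span of 6.32 kb against 18.2 kb for Mediator.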

How the data were processed

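H3K27ac ChIP-seq peaks of control mESCs were taken as deposited by the authors. The deposited coordinates pool both control samples, and per the methods come from reads trimmed with Cutadapt, aligned with bwa meme to mm10 and the human genome together and cleared of duplicates and poorly mapped reads, after which peaks were called with LanceOtron, merged when within 2 kb and filtered by height and by distance to ATAC-seq summits. Merging sets the widths, and filtering sets which promoters count as unmarked. The depth per sample cannot be read from the list.

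Peaks were compared with GENCODE M21 (GRCm38), an earlier release than the one the study names, using transcripts of the types protein_coding and lincRNA and the isoform with the longest genomic span. Starts were converted to count from 1. The modules follow textbook assignments, which vary for Med19, Med26 and Med27 to Med30. Members, lists and motifs were chosen with earlier results of these data known. The rule for named genes took the unmarked members, the 5 widest and 5 narrowest peaks, the paralogs, Med1, Med14 and Med26 in full, the other members by range, and other genes with a TSS in a member's peak. Smim7, Tmem38a, Slc35e1 and Gm26819 were named after their values were seen, and 1 neighbouring gene is not reported here. With 1 pooled list no test was run, and shares and medians have 95% Wilson or exact binomial intervals, which treat genes as independent counts. Functions were tested on simulated data. Python 3.11.15, numpy 2.4.6, pandas 2.3.3, scipy 1.17.1, pysam 0.24.0 and matplotlib 3.10.9 were used. Alternatives changed the window, isoform, overlap, peak width, merging distance, other genes counted and CpG window.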

Additional observations from a re-analysis of the deposited data

How the results depend on the processing

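The count of 31 marked members became 30 when the TSS itself had to be covered, 32 with any isoform, the isoform of longest spliced length or the APPRIS principal isoform, 29 with peaks at least 1 kb wide, and stayed at 31 under the other 4 alternatives, while the share over all protein-coding genes ran from 43.7 to 51.0% under these 9. Of the members, 30 kept their call under all 9. Med10 became marked under the 3 isoform alternatives, Med24 became unmarked with the TSS itself and with peaks at least 1 kb wide, and Med30 with the latter. The median width stayed between 1884.5 and 1886 bp, the peaks reaching farther downstream between 22 and 25, those holding another TSS at 5 or 6, and the members with a further peak between 7 and 9. The median CpG ratio of 0.634 moved to 0.845 between 250 bp before and 50 bp after the TSS, where it was 0.554 over all and 0.784 over marked protein-coding genes. The list gives no score, so peaks at least 1 kb wide stood in for a stricter threshold. No paired analysis was possible because peaks of both control samples were pooled, and for the same reason no sample could be left out.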

Other observations

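Peaks within 50 kb of the TSS, a count made after the members' values were seen, numbered 1 to 8 per member with a median of 3 against 2 over all protein-coding genes. Over the marked members the median was 4, against 3 over marked protein-coding genes. Med24, whose promoter peak was the narrowest, had the most with 8, and Ccnc had 7. The promoter peak was the only one within 50 kb for Med7, Med12l, Med13, Med14 and Med30, and Med10 and Med27 had 1 each, away from the TSS of the longest isoform. Near Med26, peaks of 1898 and 1947 bp lay between -14.0 and -12.1 kb and between -24.5 and -22.5 kb from the TSS, the latter at the start sites of Smim7 and Tmem38a. Near Cdk19, a peak of 1134 bp ended at -38.3 kb from the TSS, outside any protein-coding or lincRNA gene.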
